A study of Homo sapiens with 11 samples.

Results

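The enzymes examined here write, remove or read DNA methylation, or place the repressive mark on histone H3 lysine 27. They were 9 genes, taken by symbol from a table of 19990 genes: the methyltransferases DNMT1, DNMT3A and DNMT3B, the hemimethylation reader UHRF1, the 5-methylcytosine oxidases TET1, TET2 and TET3, and the histone methyltransferases EZH1 and EZH2. All 9 had counts in every library and passed the filter on low counts. RNA came from cardiomyocytes made at passage 63 from WTC11, a widely used line of human induced pluripotent stem cells. A GSK3 inhibitor (CHIR99021) and then a Wnt secretion inhibitor (IWP2) directed the differentiation, and medium with B27 and insulin was used afterwards. Wells were collected at Day 30 (4 wells), Day 60 (3 wells) and Day 113 (4 wells). The groups shared genotype and agents and differed in time in culture. The labels describe parallel wells of 1 line at 1 passage and name no separate differentiations, so the p-values measure only the spread between these wells. Cardiomyocyte markers such as troponin and myosin genes were present in every well (a 12-gene sum of 33820 to 48726 CPM, a unit explained below).

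DNA methylation at CpG sites is laid down by DNMT3A and DNMT3B and copied after replication by DNMT1, which UHRF1 brings to half-methylated DNA. TET enzymes oxidise 5-methylcytosine, which can then be lost by dilution or by excision through TDG and base excision repair. EZH1 and EZH2 are the alternative catalytic subunits of Polycomb repressive complex 2 (PRC2), which methylates histone H3 lysine 27. EZH2 is the form of dividing and fetal cells, and EZH1 persists in cells that have stopped dividing, including adult heart muscle. UHRF1, DNMT1 and EZH2 are known targets of E2F transcription factors, which switch on genes of DNA replication.

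Over the whole course, the enzymes split into a group that rose and a group that fell. From Day 30 to Day 113, UHRF1, EZH2 and EZH1 rose, and DNMT3B, TET1, DNMT3A and TET3 fell. DNMT1 dipped at Day 60 and was back near its first level at Day 113, and TET2 was called in no comparison. Levels are in counts-per-million (CPM) on TMM-scaled libraries, and a gene was called at a Benjamini-Hochberg adjusted p under 0.05 over all 19990 genes in edgeR's quasi-likelihood test. Of the 9 genes, 7 were called from Day 30 to Day 113, against 34.5% of all genes, with 3 higher (17.3% of all genes) and 4 lower (17.2%). From Day 30 to Day 60, 2 were called, 1 in each direction, against 10.3% of all genes (4.39% higher, 5.91% lower). From Day 60 to Day 113, 4 were called, 3 higher and 1 lower, against 24.0% of all genes (12.9% higher, 11.1% lower). The test for any change over the 3 days called 8 of the 9, against 37.1% of all genes. The wells of the compared days did not overlap for 6 genes from Day 30 to Day 60 (2 higher and 4 lower), 4 from Day 60 to Day 113 (3 higher and 1 lower) and 7 from Day 30 to Day 113 (3 higher and 4 lower). Over all genes this held for 24.8% (10.7% higher, 14.1% lower), 30.6% (16.2% higher, 14.4% lower) and 35.1% (17.1% higher, 18.0% lower). The members' median log2 change from Day 30 to Day 113 was 0.04, beside -0.02 over all genes, and their median size of change was 0.46, beside 0.43. The size of change was thus close to that of the table as a whole, and the count called was not tested against it.

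**Figure D1:**
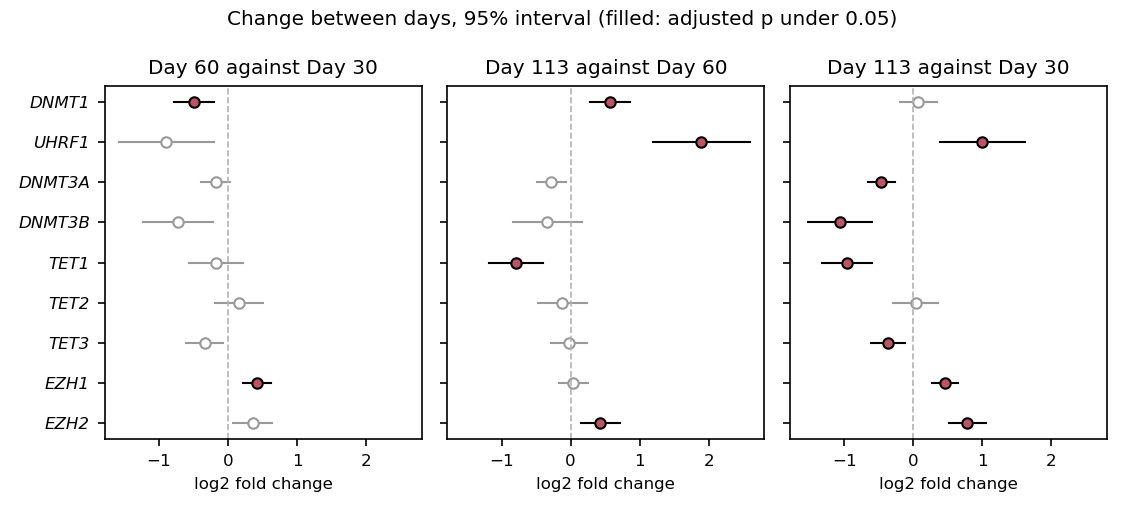
Log2 fold change of each gene (x axis) between each pair of days, with its 95% interval; filled points passed an adjusted p of 0.05. From Day 30 to Day 113, 3 genes lie to the right of 0 and 4 to the left, and DNMT1 and TET2 lie at 0.07 and 0.04 with intervals that span 0.

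The libraries held 24071375 to 34546715 counts, and the lowest value among these genes was the 57 counts of UHRF1 in Day 30 replicate 1. Wells of a day differed by 11.4 to 84.0 in chi-square per degree of freedom, more than sampling noise. The counts are per gene, so transcript forms of 1 gene, such as the long and short forms of DNMT3A or TET1, could not be told apart. Exons of 1 of the 9 genes overlapped another gene of the table, with 83 bases of DNMT1 (0.847% of its exon length) shared with S1PR2 on the same strand. The samples are bulk RNA, so fewer cells of a type and less RNA per cell cannot be told apart.

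Levels of different genes were compared per kilobase of annotated exon (GENCODE release 29, GRCh38). At Day 30, TET1 had the highest level of the 9, at 13.6 ± 1.72 CPM per kb (SD, n = 4), and UHRF1 the lowest, at 0.97 ± 0.416 (SD, n = 4). Between them lay DNMT1 at 6.77, EZH1 at 5.97, DNMT3A at 5.90, TET2 at 5.59, EZH2 at 4.03, TET3 at 3.84 and DNMT3B at 2.604 CPM per kb. The wells of EZH1, DNMT3A and TET2 overlapped at Day 30, as did those of EZH2 and TET3, and the other neighbours in the order were apart. At Day 60 the order was TET1 (12.1), EZH1 (7.97), TET2 (6.24), DNMT3A (5.20), EZH2 (5.15), DNMT1 (4.83), TET3 (3.04), DNMT3B (1.57) and UHRF1 (0.524 CPM per kb), with the wells of TET2, DNMT3A, EZH2 and DNMT1 all overlapping. By Day 113, EZH1 stood first at 8.19 ± 0.710 CPM per kb (SD, n = 4), followed by DNMT1 at 7.13, TET1 at 6.99 and EZH2 at 6.95, and the wells of these 4 genes overlapped. TET2 (5.74) overlapped DNMT1, TET1, EZH2 and DNMT3A, and TET1 overlapped DNMT3A. DNMT3A (4.29), TET3 (2.98), UHRF1 (1.95) and DNMT3B (1.24 CPM per kb) closed the order with no overlap among the last 4. Lengths of the longest coding transcript in place of all exons put DNMT1 first at Day 113 (12.9, against 12.4 for EZH1 and 11.9 for EZH2), and TET1 stayed first at Day 30 (13.6, against 12.3 for DNMT1).

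DNMT1 and UHRF1 keep methylation through cell division. DNMT1 (chromosome 19, 10133345 to 10231286, minus strand, GRCh38) stood at 65.9, 67.0, 64.1 and 68.3 CPM in the 4 Day 30 wells, at 58.2, 48.4 and 35.2 CPM in the 3 Day 60 wells, and at 78.7, 64.6, 67.1 and 68.8 CPM in the 4 Day 113 wells. The Day 60 wells all lay below the other wells, and Day 60 replicate 3 was the lowest of the 11. By Day 60 the log2 level of DNMT1 had changed by -0.49 ± 0.14 (SE, adjusted p 0.0303), and it then changed by 0.56 ± 0.14 (SE, adjusted p 0.00723) up to Day 113. The size of the fall hardly moved without any 1 of the 4 Day 30 wells (-0.50 to -0.46) or Day 60 replicate 2 (-0.51), although with fewer wells its adjusted p passed the threshold in none of these (0.0582 to 0.0882). Without Day 60 replicate 3 it was smaller, at -0.29 (adjusted p 0.179). Over the whole course the difference was 0.07 with a 95% interval of -0.19 to 0.34.

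UHRF1 (chromosome 19, 4903080 to 4962154, plus strand) stood at 2.18, 7.24, 4.71 and 5.84 CPM at Day 30, at 2.71, 3.17 and 2.21 CPM at Day 60, and at 8.17, 11.5, 9.39 and 11.03 CPM at Day 113. Every Day 113 well lay above every earlier well, and Day 30 replicate 1 lay as low as the Day 60 wells. After Day 60, UHRF1 rose 3.71-fold, a log2 change of 1.89 ± 0.33 (SE) (adjusted p 0.000772), the largest change of any of the 9 genes in any pair of days. It was 2.00-fold higher at Day 113 than at Day 30 (log2 1.00 ± 0.29, SE, adjusted p 0.0132). The lower level at Day 60 than at Day 30 did not pass (-0.89 ± 0.32, SE, adjusted p 0.0984), and did without Day 30 replicate 1 (-1.14, adjusted p 0.013).

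DNMT1 and UHRF1 were the 2 of the 9 genes for which the change from Day 60 to Day 113 differed from that from Day 30 to Day 60 when the difference itself was tested, against 9.34% of all genes (4.97% positive, 4.38% negative). That difference was 1.05 ± 0.25 (SE) for DNMT1 (adjusted p 0.0149) and 2.78 ± 0.60 (SE) for UHRF1 (adjusted p 0.00982). Without Day 60 replicate 3, the difference for DNMT1 shrank to 0.67 and was not called (adjusted p 0.0994). For UHRF1 it stayed about as large without Day 60 replicate 3 (2.5, adjusted p 0.068) or replicate 1 (2.76, adjusted p 0.0558), but was not called.

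**Figure D2:**
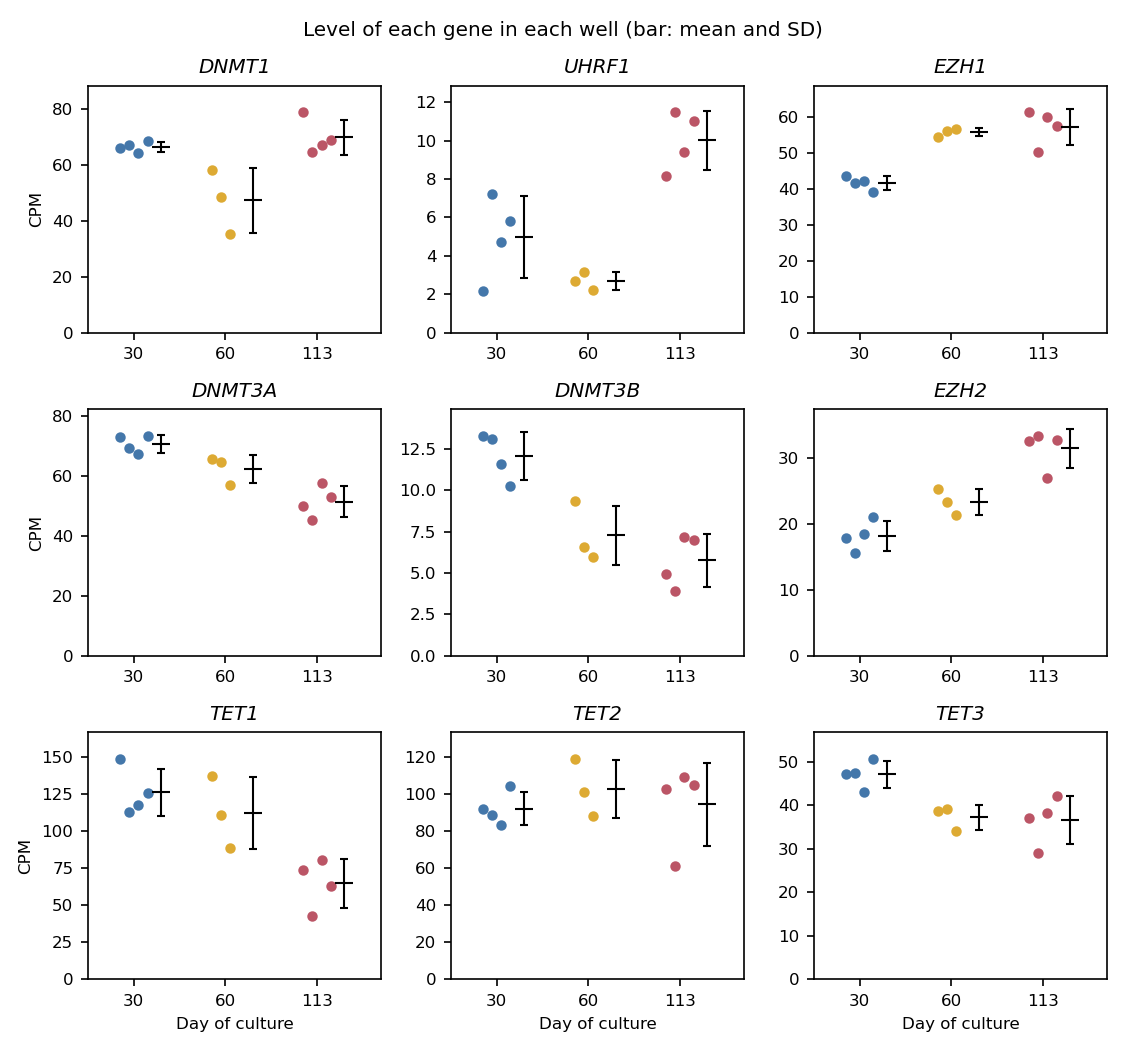
CPM (y axis, from 0) of the 9 genes in every well by day of culture (x axis); points are wells and black bars the mean and SD of the day. UHRF1 and EZH2 are highest in the 4 Day 113 wells, DNMT3A, DNMT3B and TET1 are lowest there on average, and DNMT1 is lowest at Day 60.

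The promoters of UHRF1 and DNMT1 are shown because these genes, together with EZH2, are textbook E2F targets and rose after Day 60. Windows of 300 bases (250 before to 50 after each RefSeq start, GRCh38.p14) were searched on both strands for 4 forms of the E2F site, TTTCCCGC, TTTGGCGC, TTTCGCGC and TTTGCCGC, none of which contains another. A match, in capitals below, is a description and not a shown binding site. The first UHRF1 window is chr19:4909251-4909550 and the second chr19:4909894-4910193, both on the plus strand, and the DNMT1 window is chr19:10194904-10195203 on the minus strand.
UHRF1 first start: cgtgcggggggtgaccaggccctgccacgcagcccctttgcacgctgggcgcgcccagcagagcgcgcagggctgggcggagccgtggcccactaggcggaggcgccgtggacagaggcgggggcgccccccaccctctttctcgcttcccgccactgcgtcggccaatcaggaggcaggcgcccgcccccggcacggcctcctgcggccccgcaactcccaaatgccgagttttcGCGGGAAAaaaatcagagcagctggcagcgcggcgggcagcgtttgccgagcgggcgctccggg
UHRF1 second start: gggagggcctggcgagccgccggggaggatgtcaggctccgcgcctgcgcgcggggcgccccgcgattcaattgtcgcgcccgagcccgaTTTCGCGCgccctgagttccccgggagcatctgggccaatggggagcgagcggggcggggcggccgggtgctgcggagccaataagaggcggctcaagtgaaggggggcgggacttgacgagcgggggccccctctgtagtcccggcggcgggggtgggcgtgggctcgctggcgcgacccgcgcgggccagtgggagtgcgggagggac
DNMT1: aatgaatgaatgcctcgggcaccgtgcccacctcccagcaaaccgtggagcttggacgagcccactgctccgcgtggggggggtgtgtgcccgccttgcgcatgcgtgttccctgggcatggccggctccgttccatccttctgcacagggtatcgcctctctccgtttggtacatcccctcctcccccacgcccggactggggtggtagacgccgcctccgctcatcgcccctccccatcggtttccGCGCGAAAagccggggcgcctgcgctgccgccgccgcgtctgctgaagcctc
The first UHRF1 window and the DNMT1 window each hold a match on the reverse strand, beginning at base 237 and base 249 of the window, close to the RefSeq start. The second UHRF1 window holds one at base 91, and the other UHRF1 window held none. The UHRF1 and DNMT1 windows all lie inside the genes as annotated above. No window at the annotated start of either gene was examined, so these matches describe internal starts only. Among the 9 genes, 4 had a match in at least 1 window (DNMT1, UHRF1, EZH1 and EZH2), and 5 of their 21 windows held one. Of the 19584 windows of genes in the table, 4.29% held one, and of the 13692 genes, 5.78%. On the list of replication and mitosis markers described below, 8 of 17 genes with a window had a match.

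DNMT3A and DNMT3B, the enzymes that methylate new sites, both fell. DNMT3A (chromosome 2, 25227855 to 25342590, minus strand) stood at 73.3, 69.4, 67.3 and 73.6 CPM at Day 30, at 65.7, 64.7 and 57.1 CPM at Day 60, and at 50.02, 45.2, 57.8 and 53.2 CPM at Day 113. Its Day 30 wells lay above all others, and the Day 60 and Day 113 wells overlapped. DNMT3A fell by 0.46 ± 0.09 (SE) on the log2 scale over the course (adjusted p 0.00135), and the change in each interval did not pass (-0.18, adjusted p 0.319, and -0.28, adjusted p 0.059). The second of these did pass with DESeq2 (adjusted p 0.037), with RLE scaling (0.0492), with upper-quartile scaling (0.0241), with a filter on mean CPM (0.0351), and without Day 60 replicate 3 (0.0473) or Day 113 replicate 3 (0.0351).

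DNMT3B (chromosome 20, 32762385 to 32809356, plus strand), the form most abundant in pluripotent stem cells and early embryos, stood at 13.3, 13.1, 11.6 and 10.2 CPM at Day 30, at 9.32, 6.56 and 5.99 CPM at Day 60, and at 4.94, 3.94, 7.16 and 7.02 CPM at Day 113. All Day 30 wells lay above all later wells, and the later days overlapped. DNMT3B was 2.09-fold lower at Day 113 than at Day 30 (log2 -1.06 ± 0.22, SE, adjusted p 0.00136). At Day 60 it was at -0.72 ± 0.24 (SE) relative to Day 30, which did not pass in edgeR (adjusted p 0.0646) and did with DESeq2 (0.0406), with limma-voom (0.0425), in a fit of those days alone (0.0229) and without Day 113 replicate 2 (0.0332). The RefSeq promoter window of DNMT3B (chr20:32779602-32779901, inside the gene as annotated above) held 3 CpG sites. The median window of genes in the table held 23, and 7.68% of windows held fewer than it did. No window at the annotated start of the gene was examined, so this count describes the internal start only.

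Genes that assist or resemble these enzymes were called in no pair of days. They were HELLS and CDCA7, which remodel chromatin for DNA methylation, USP7, which stabilises DNMT1 and UHRF1, and TRDMT1, a relative that methylates RNA. Their changes from Day 30 to Day 113 were 0.17, 0.17, 0.17 and 0.23 on the log2 scale (adjusted p 0.177 to 0.661). DNMT3L, the cofactor of the DNMT3 enzymes in germ cells, was not analysed here.

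Of the TET enzymes, TET1 and TET3 fell over the course and TET2 was not called. TET1 (chromosome 10, 68560656 to 68694482, plus strand), like DNMT3B known for its high level in pluripotent cells, stood at 149, 113, 117 and 126 CPM at Day 30, at 137, 111 and 88.9 CPM at Day 60, and at 73.5, 42.6, 80.6 and 63.1 CPM at Day 113. The 4 Day 113 wells lay below all earlier wells, while Day 30 and Day 60 overlapped. TET1 fell by 0.79 ± 0.18 (SE) on the log2 scale from Day 60 to Day 113 (adjusted p 0.00551) and was 1.94-fold lower at Day 113 than at Day 30 (log2 -0.96 ± 0.17, SE, adjusted p 0.000453). Without Day 113 replicate 2, its lowest well, the fall over the course was -0.80 (adjusted p 0.000476).

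TET3 (chromosome 2, 73986404 to 74108176, plus strand) stood at 47.3, 47.4, 43.1 and 50.7 CPM at Day 30, at 38.8, 39.1 and 34.0 CPM at Day 60, and at 37.0, 29.1, 38.3 and 42.0 CPM at Day 113. It fell by 0.36 ± 0.11 (SE) on the log2 scale over the course (adjusted p 0.021), a call that ended when Day 30 replicate 2 (adjusted p 0.0538) or Day 30 replicate 4 (0.0633) was left out. Its difference at Day 60 was -0.34 ± 0.12 (SE) and did not pass (adjusted p 0.101), but did in a fit of those days alone (0.0437) and without Day 113 replicate 2 (0.0312). TET2 (chromosome 4, 105145875 to 105279816, plus strand) ranged from 83.2 to 104 CPM at Day 30, from 88.3 to 119 CPM at Day 60 and from 61.3 to 109 CPM at Day 113. Its difference over the course was 0.04 with a 95% interval of -0.29 to 0.36, and its wells overlapped in every pair of days.

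Per kilobase of exon, the 3 TET genes had a Day 30 sum of 23.0 ± 2.07 CPM per kb (SD, n = 4), a Day 60 sum of 21.4 ± 3.73 (SD, n = 3) and a Day 113 sum of 15.7 ± 3.45 (SD, n = 4). TET1 made up 58.9% ± 3.02 (SD, n = 4), 56.3% ± 2.32 (SD, n = 3) and 44.3% ± 2.84 (SD, n = 4) of these sums, and its share in each Day 113 well was below that of any earlier well. The share of TET2 went from 24.3% ± 1.91 (SD, n = 4) through 29.3% ± 0.858 (SD, n = 3) to 36.4% ± 1.502 (SD, n = 4), with no overlap between days. With the length of the longest coding transcript the shares of TET1 and TET2 at Day 113 were 35.7% and 47.5%, so which of them led at Day 113 depended on the length used. For the DNMT genes the sums at the 3 days were 15.3 ± 0.447 (SD, n = 4), 11.6 ± 1.90 (SD, n = 3) and 12.7 ± 0.974 CPM per kb (SD, n = 4). Between Day 30 and Day 113 the share of DNMT1 went from 44.3% ± 1.13 to 56.4% ± 4.04, and that of DNMT3B from 17.0% ± 1.82 to 9.76% ± 2.26 (SD, n = 4 each). These sums and shares were not tested.

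**Figure D3:**
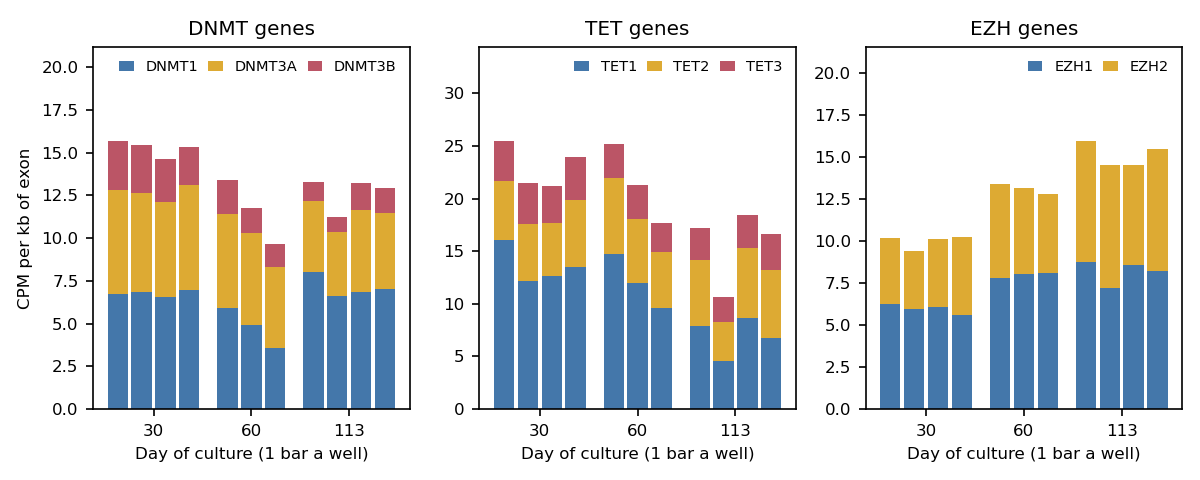
Stacked CPM per kb of exon (y axis, from 0) of the DNMT, TET and EZH genes, with 1 bar for each well grouped by day of culture. The EZH sum rises from 10.0 to 15.1 CPM per kb between Day 30 and Day 113, the TET sum falls from 23.0 to 15.7, and the DNMT1 part of the DNMT bars is smallest at Day 60.

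Both PRC2 methyltransferases rose over the course. EZH1 (chromosome 17, 42700275 to 42745049, minus strand) stood at 43.7, 41.6, 42.3 and 39.2 CPM at Day 30, at 54.5, 56.0 and 56.6 CPM at Day 60, and at 61.3, 50.2, 60.1 and 57.5 CPM at Day 113. All later wells lay above all Day 30 wells, and the later days overlapped. EZH1 rose by 0.42 ± 0.10 (SE) on the log2 scale by Day 60 (adjusted p 0.011) and was 1.37-fold higher at Day 113 than at Day 30 (log2 0.46 ± 0.09, SE, adjusted p 0.000966). From Day 60 to Day 113 its change was 0.04, with a 95% interval of -0.17 to 0.25.

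EZH2 (chromosome 7, 148807383 to 148884321, minus strand) stood at 17.8, 15.6, 18.5 and 21.1 CPM at Day 30, at 25.3, 23.3 and 21.3 CPM at Day 60, and at 32.6, 33.4, 27.02 and 32.7 CPM at Day 113. No 2 days overlapped. EZH2 was 1.72-fold higher at Day 113 than at Day 30 (log2 0.78 ± 0.12, SE), with the smallest adjusted p of the 9 genes in that comparison, 0.000161. The step from Day 30 to Day 60 was 0.35 ± 0.13 (SE) and did not pass (adjusted p 0.112). The step from Day 60 to Day 113 was 0.43 ± 0.13 (SE) and passed (adjusted p 0.0287), but not with upper-quartile scaling (0.0559), nor without Day 60 replicate 2 (0.0679), Day 60 replicate 3 (0.118), Day 113 replicate 1 (0.0509) or Day 113 replicate 4 (0.0567). The step itself was 0.37 with that scaling and 0.43, 0.36, 0.41 and 0.41 without those wells. The change in the 2 intervals did not differ for either gene in the test of that difference (EZH1 -0.38, adjusted p 0.184, and EZH2 0.08, adjusted p 0.892).

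The promoters of both genes are shown for comparison with those of UHRF1 and DNMT1, with the E2F-type matches again in capitals. The EZH2 window is chr7:148884242-148884541 and the EZH1 window chr17:42744991-42745290, both on the minus strand.
EZH2: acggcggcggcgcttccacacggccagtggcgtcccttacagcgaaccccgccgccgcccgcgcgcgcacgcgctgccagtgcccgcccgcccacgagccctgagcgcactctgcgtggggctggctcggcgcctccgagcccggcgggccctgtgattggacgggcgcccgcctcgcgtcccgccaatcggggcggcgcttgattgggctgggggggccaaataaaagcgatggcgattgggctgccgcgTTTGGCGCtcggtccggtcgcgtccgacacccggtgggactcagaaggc
EZH1: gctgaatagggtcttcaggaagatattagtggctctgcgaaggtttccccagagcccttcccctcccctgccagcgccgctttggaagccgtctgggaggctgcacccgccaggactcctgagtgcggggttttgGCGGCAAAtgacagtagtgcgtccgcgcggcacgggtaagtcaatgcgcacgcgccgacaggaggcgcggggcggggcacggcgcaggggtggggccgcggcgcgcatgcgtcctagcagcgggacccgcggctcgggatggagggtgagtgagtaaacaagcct
The EZH2 match begins at base 252 of the window, just past the start, and a second EZH2 window held none. This window also holds 4 matches of the letters CCAAT on either strand, a motif found at least 1 time in 33.7% of windows of genes in the table. The EZH1 match begins at base 136, on the reverse strand, and its window holds no CCAAT.

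The log2 ratio of EZH2 to EZH1 counts within a library had a Day 30 mean of -1.20 ± 0.22 (SD, n = 4), a Day 60 mean of -1.26 ± 0.15 (SD, n = 3) and a Day 113 mean of -0.87 ± 0.23 (SD, n = 4). The days overlapped, and the difference of 0.33 between Day 113 and Day 30 had an exact two-sided permutation p of 0.0857 (adjusted 0.129 over 12 ratio tests). The ratio of DNMT3B to DNMT3A went from -2.56 ± 0.20 to -3.20 ± 0.28 between Day 30 and Day 113 and that of TET1 to TET3 from 1.42 ± 0.18 to 0.80 ± 0.27 (SD, n = 4 each), with no overlap of wells in either. For both differences, -0.63 and -0.62, the exact permutation test gave p = 0.0286 (adjusted 0.0857), and no smaller p was possible with these numbers of wells. The ratio of DNMT1 to UHRF1 went from 3.86 ± 0.74 (SD, n = 4) through 4.11 ± 0.27 (SD, n = 3) to 2.81 ± 0.34 (SD, n = 4). Its difference of -1.30 between Day 113 and Day 60 had an exact permutation p of 0.0286 (adjusted 0.0857). None of the 12 ratio tests passed after adjustment, and 4 of them were at the smallest p the design allowed.

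PRC2 works as a complex with EED, SUZ12 and RBBP4 or RBBP7, and its accessory subunits steer it to DNA. Among 10 partners tested, 1 rose and 3 fell from Day 30 to Day 113, with a median log2 change of -0.12. The core subunits EED, SUZ12 and RBBP4 were called in no comparison of days (-0.17, 0.16 and -0.04 over the course), and RBBP7 rose by 0.32 ± 0.10 (SE, adjusted p 0.0185). Among genes listed for accessory subunits, LCOR, MTF2 and JARID2 fell, by 0.84 ± 0.17 (SE, adjusted p 0.00117), 0.60 ± 0.12 (adjusted p 0.00121) and 0.56 ± 0.19 (adjusted p 0.0333) on the log2 scale. Counts per gene do not separate the products of LCOR, so its fall cannot be assigned to a PRC2 subunit. PHF19, which binds methylated histone H3 lysine 36, rose by 0.73 ± 0.11 (SE) by Day 60 (adjusted p 0.000619) and fell by 0.67 ± 0.11 afterwards (adjusted p 0.000485), from 35.2 to 58.2 and back to 36.5 CPM. EPOP and EZHIP were not analysed here.

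Some forms of Polycomb repressive complex 1 (PRC1) read the mark that EZH1 and EZH2 write. Of 17 PRC1 genes tested, 6 rose and 2 fell from Day 30 to Day 113, with a median log2 change of 0.08. The list was not restricted to the forms that read the mark. CBX7, a reader of the mark, rose from 29.1 ± 3.54 (SD, n = 4) to 60.3 ± 5.87 CPM (SD, n = 4), by 1.05 ± 0.11 (SE) on the log2 scale (adjusted p 4.67e-06). CBX6 rose by 0.92 ± 0.10 (SE, adjusted p 5.97e-06), PCGF6 by 0.70 ± 0.14 (adjusted p 0.00131) and BMI1 by 0.75 ± 0.25 (adjusted p 0.026), while PHC3 and YAF2 fell by 0.48 and 0.33. CBX2, singled out after its values were seen, was lowest at Day 60 as DNMT1 was, at 10.9, 5.40 and 11.9 CPM on average at the 3 days. It fell by 1.01 ± 0.24 (SE, adjusted p 0.0111) on the log2 scale by Day 60 and rose by 1.14 ± 0.24 (SE, adjusted p 0.00257) afterwards.

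Both genes tested for demethylases that remove the same mark fell. KDM6B had Day 30, Day 60 and Day 113 means of 206 ± 29.5 (SD, n = 4), 152 ± 25.7 (SD, n = 3) and 77.4 ± 5.599 CPM (SD, n = 4), a fall of 1.41 ± 0.12 (SE) on the log2 scale (adjusted p 3.52e-07). KDM6A fell by 0.37 ± 0.12 (SE, adjusted p 0.0303), from 102 ± 8.33 (SD, n = 4) to 79.1 ± 13.9 CPM (SD, n = 4). Its wells overlapped, at 93.4 to 112 CPM at Day 30 and 62.9 to 94.9 CPM at Day 113. So from Day 30 to Day 113 EZH1 and EZH2 were higher at the RNA level, and the 2 demethylase genes tested were lower, KDM6A with overlapping wells. The mark itself was not measured.

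**Figure D4:**
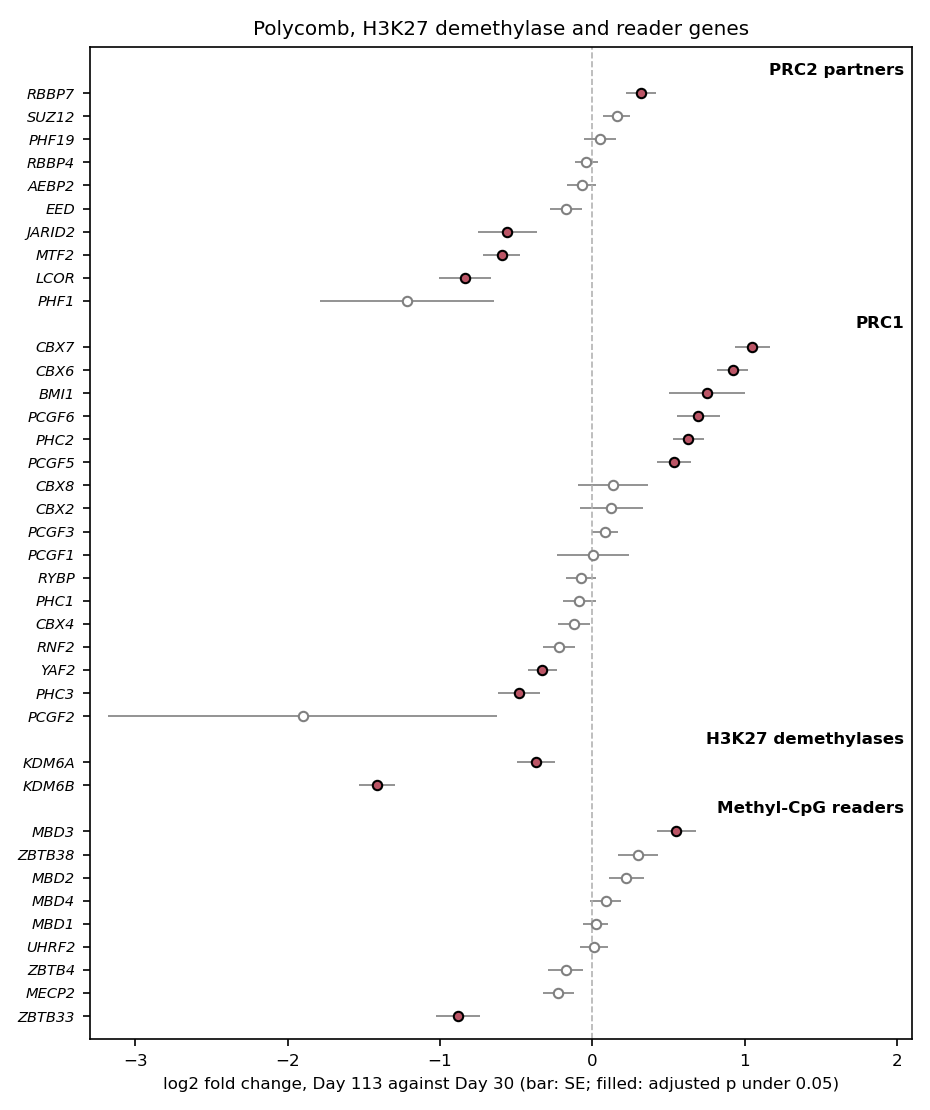
Log2 fold change from Day 30 to Day 113 (x axis, bars are SE) of PRC2 partners, PRC1 genes, H3K27 demethylases and methyl-CpG reader families. Filled points passed an adjusted p of 0.05. KDM6B lies lowest among the filled points, at -1.41, and CBX7 highest, at 1.05.

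Of 9 genes from families that read methylated CpG sites, though not every member does, 1 rose and 1 fell from Day 30 to Day 113. Their median log2 change was 0.02. MBD3 rose by 0.55 ± 0.13 (SE, adjusted p 0.00345) and ZBTB33, the gene of Kaiso, fell by 0.88 ± 0.14 (SE, adjusted p 0.000207). UHRF2, the paralogue of UHRF1, was at 46.9, 41.1 and 47.2 CPM at the 3 days and was called in no pair of days. Of 7 genes of base excision repair or linked to the TET enzymes, 1 rose and 4 fell over the course, with a median of -0.30. TDG, which excises the oxidised bases, rose by 0.39 ± 0.10 (SE, adjusted p 0.00688). LIG3, XRCC1, PARP1 and APEX1, of base excision repair, fell by 0.46, 0.41, 0.36 and 0.27 (adjusted p 0.00887, 0.00576, 0.00403 and 0.0453).

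Since UHRF1, DNMT1 and EZH2 follow DNA replication in many cells, 20 markers of S phase and mitosis were set beside them. Over the course, 9 of these rose and 6 fell, with a median of 0.09. The 9 that rose were E2F1, CCNE2 and genes of DNA replication, and the 6 that fell were cyclins and kinases of mitosis. The S phase genes E2F1, CCNE2, PCNA and MCM5 rose by 1.65 ± 0.19, 1.80 ± 0.49, 1.25 ± 0.15 and 0.94 ± 0.13 (SE) on the log2 scale (adjusted p 6.86e-06, 0.00891, 1.31e-05 and 3.9e-05). E2F1 went from 13.4 to 42.0 CPM on average. The mitosis genes PLK1, CCNB1, CCNB2 and AURKB fell by 1.44 ± 0.22, 0.99 ± 0.19, 0.85 ± 0.19 and 0.74 ± 0.25 (SE; adjusted p 0.000109, 0.000691, 0.00229 and 0.0321). From Day 30 to Day 60, 3 of the 20 rose (TOP2A, CDK1 and CCNA2) and none fell, and the summed level of the list was 771 to 907 CPM at Day 30, 1027 to 1275 at Day 60 and 741 to 1013 at Day 113. Much of the higher Day 60 sum was TOP2A, at 170 CPM on average at Day 30 and 343 at Day 60. The S phase and replication genes of the list were not called in that interval. Of these, MCM3, MCM5, MCM6 and MCM7 had log2 changes of -0.17, -0.15, -0.14 and -0.35. The rest went the other way, with PCNA at 0.10, MCM2 at 0.08, MCM4 at 0.03 and TYMS at 0.13. E2F1, RRM2 and CCNE2 were likewise higher, at 0.20, 0.42 and 0.44. These genes thus shared no direction, while the mean levels of DNMT1 and UHRF1 were lower at Day 60. After Day 60, UHRF1, DNMT1 and EZH2 were higher together with E2F1 (1.46 ± 0.21, SE, adjusted p 0.000148), PCNA (1.15 ± 0.17, adjusted p 0.000182) and MCM5 (1.09 ± 0.14, adjusted p 7.45e-05), while PLK1 fell by 1.77 ± 0.23 (adjusted p 7.67e-05). Of the 20 markers, 7 rose and 9 fell in this interval. CCNE2 (1.36, adjusted p 0.073), MCM2 (0.37, 0.0641), RRM2 (0.28, 0.228) and TYMS (-0.24, 0.286) were not called.

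**Figure D5:**
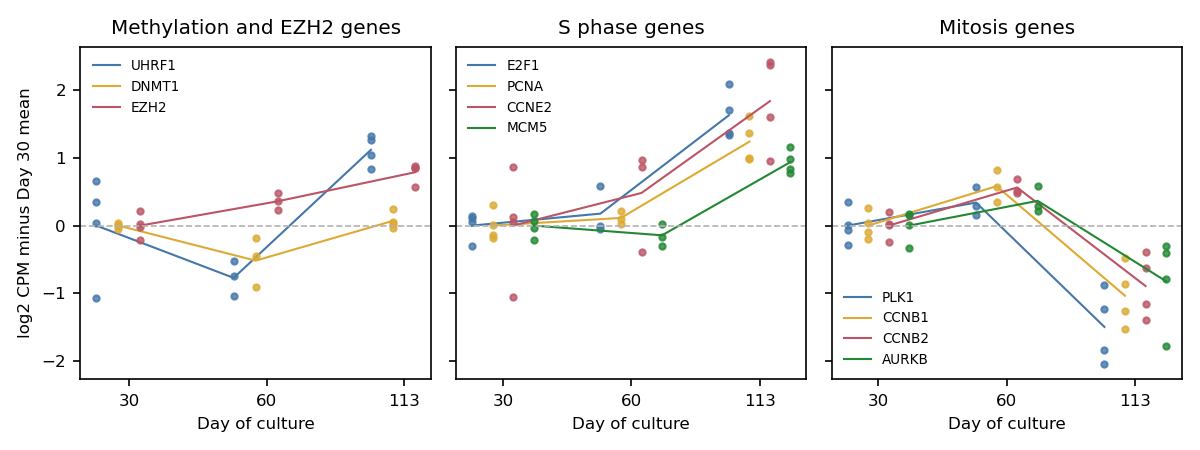
Log2 CPM minus the Day 30 mean (y axis) in every well by day of culture for UHRF1, DNMT1 and EZH2, for 4 S phase genes and for 4 mitosis genes; points are wells and lines join the day means. The S phase genes and UHRF1 are highest at Day 113, where the mitosis genes are lowest.

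Markers of other cell types also moved between these days. Endothelial markers (10 genes) summed to 78.7 to 114, 51.4 to 81.9 and 232 to 888 CPM at the 3 days. By Day 60, 1 of them fell and none rose, and all 10 rose from Day 60 to Day 113. Fibroblast markers (10 genes) summed to 3446 to 8092, 2125 to 3627 and 5485 to 13111 CPM. By Day 60, 1 of them rose and 4 fell, and from Day 60 to Day 113, 6 rose and 1 fell. Of 7 smooth muscle markers, 2 rose by Day 60, 4 rose from Day 60 to Day 113 and none fell in either interval. Summed cardiomyocyte markers were at 33820 to 45590 CPM at Day 30, 43061 to 48726 at Day 60 and 36689 to 40780 at Day 113, so that all Day 113 wells lay below all Day 60 wells. Of the 12 cardiomyocyte markers, 2 rose (TNNT2 and MYL2) and 2 fell (MYH7 and PLN) in that interval. MYH7, the highest of the 12 at both days, went from 14522 to 9277 CPM on average, and PLN from 5242 to 3623 CPM. TNNT2 went from 2993 to 4334 CPM and MYL2 from 441 to 789 CPM. Within Day 113, the well with the most endothelial RNA (replicate 1, 888 CPM) had the highest DNMT1 and the lowest UHRF1 of its day. That well also had the highest sums of fibroblast (13111 CPM), smooth muscle (1716.5 CPM) and replication and mitosis markers (1013 CPM) of its day. Of 10 endoderm markers, 9 fell by Day 60, and SOX17, which endothelial cells also express, did not pass (adjusted p 0.248). After Day 60, 3 of the 10 fell and SOX17 rose. Their sum, mostly AFP and ALB at Day 30, was 526 to 1564 CPM at Day 30, 54.3 to 64.9 at Day 60 and 28.5 to 55.2 at Day 113. The 4 pluripotency markers tested, of 8 listed, summed to 10.8 to 21.0, 2.39 to 12.5 and 1.27 to 5.01 CPM. By Day 60, 3 of them fell (LIN28A, TDGF1 and L1TD1), and LIN28A and L1TD1 were at 0 counts in every Day 113 well. The other, SOX2, averaged 1.52, 5.11 and 1.68 CPM at the 3 days and was called in no pair of days. The part of these cells in the changes of the 9 genes was not tested.

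Across the 11 libraries, the log2 CPM of DNMT3A had a Pearson r of 0.95 with TET1, 0.91 with DNMT3B and 0.84 with TET3, and of -0.85 with EZH2. UHRF1 had an r of 0.64 with DNMT1 and 0.55 with EZH2, and EZH1 had 0.72 with EZH2. These are descriptions over 11 wells that share days and libraries. Among the 11945 genes compared with each, the 3 most alike in course were TYK2, DROSHA and DIPK2B for DNMT1 (r 0.93 to 0.96), PAQR4, MIR5047 and PSMA4 for UHRF1 (0.94 to 0.96), and YPEL2, HK2 and IPMK for DNMT3A (0.97 to 0.98). They were NPEPPS, SHROOM3 and KLF8 for DNMT3B (0.95 to 0.96), ZMIZ1, HK2 and PPP1R3B for TET1 (0.98 to 0.99), ZNF654, ATP7A and C5orf24 for TET2 (0.93 to 0.96), and TIAM2, FLJ42627 and SHROOM3 for TET3 (0.92 to 0.98). For EZH1 they were RGS6, LOC107986558 and NFIB (r of 0.96), and for EZH2 they were XRCC2, LINC00342 and HERC5 (0.96 to 0.97).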

How the data were processed

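Poly(A) RNA from 11 wells was sequenced. Read counts per gene symbol, whole numbers and not normalized, are as the authors deposited them. The submitters' processing notes name STAR 2.5.3a, featureCounts 2.0.3 and the build hg38; annotation, strand setting and filters are not given in the sources used here. The authors also deposited TPM values. The gene length implied by count over TPM differed between libraries (median Spearman rho across 55 library pairs of -0.0022, and up to 119-fold for DNMT1), so TPM entered no comparison.

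Counts were tested with edgeR 4.0.16 (glmQLFit and glmQLFTest, R 4.3.3), TMM scaling and 1 fit over all 11 libraries, with 1 term for each day. A filter on low counts (filterByExpr, minimum count 10) removed 0 genes. P-values were adjusted by Benjamini-Hochberg over 19990 genes within each contrast. SE is the absolute log2 fold change over the square root of F. Ratios used a pseudocount of 0.5 and exact permutation tests. The script was tested on simulated data. Alternatives used DESeq2 1.42.0, limma-voom (limma 3.58.1), other scalings, filters, dispersions and samples. Day and collection coincide, so they cannot be told apart.

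The 9 genes and all lists were chosen with earlier results of these data known. Named genes were the 9, up to 4 in each direction per list among those called from Day 30 to Day 113 (lists of up to 12 genes in full), and the 3 genes most alike to each of the 9 among those with a mean of at least 5 CPM. CBX2, TOP2A, CDK1, CCNA2 and Day 113 replicate 1 were singled out after their values were seen. The S phase and replication genes of the marker list were all named for Day 30 to Day 60, and those not called after Day 60 were named for that interval. Among the listed genes, 1 is not reported here.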

Additional observations from a re-analysis of the deposited data

Results flagged for a closer look

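Of 18 groups of 4 wells examined for a well that stands apart from the rest of its day (9 genes at Day 30 and at Day 113), 2 were flagged, where chance flags about 1 in 20. TET2 in Day 113 replicate 2 was at 61.3 CPM, against 103 to 109 CPM in the other wells. EZH2 in Day 113 replicate 3 was at 27.02 CPM, against 32.6 to 33.4 CPM in the other wells. Day 113 replicate 2 had the lowest value of its day for 7 of the 9 genes and the highest for the other 2, UHRF1 and EZH2. Without that well 7 of the 9 genes were still called from Day 30 to Day 113.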

How the results depend on the processing

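Of the single-gene changes between days recomputed under each alternative, 700 kept their direction and their side of the threshold, 22 lost a call, 13 gained one and 12 changed sign, and no change of sign was in a change that had been called. The count of called members between Day 30 and Day 60 (2) was 4 with only the 2 days compared and 0 at an adjusted p under 0.01, and ranged from 1 to 4 when each well was left out. The number called for a difference between the intervals (2) was 1 at an adjusted p under 0.01 and ranged from 0 to 2 without single wells. From Day 30 to Day 113 it was 5 to 7, and from Day 60 to Day 113 it was 3 to 5. Changes of sign were EZH1 from Day 60 to Day 113 with upper-quartile scaling (-0.026), EZH2 in the difference between intervals with upper-quartile scaling (-0.027), with the replicate block (-0.015) and without single wells (-0.079 to 0.17), TET2 without single wells (-0.037 to 0.20 over the course and -0.23 to 0.040 after Day 60) and TET3 without single wells (-0.097 to 0.070 after Day 60). The ratio of EZH2 to EZH1 from Day 30 to Day 60 ranged from -0.14 to 0.042 and that of DNMT3B to DNMT3A after Day 60 from -0.17 to 0.078 without single wells. The cause was not tested. The labels do not say that well numbers mark anything shared, and 4 of 10 same-numbered pairs had a correlation of deviations over 0.1 (0.0224 to 0.1575 in all 10, -0.1394 to 0.1467 between other numbers), short of the every-pair bar set for pairing. As a hint of some sharing, all 10 were above 0 and 7 of 11 libraries correlated best with their own number. With the replicate block the 3 pairs of days gave 2, 4 and 7 of the 9 genes and 2474, 4954 and 7143 of all genes, against 2060, 4790 and 6889. An adjusted p under 0.01 left 937, 2545 and 4552 of all genes. The first of these counts was 1220, 1259 and 1323 without Day 60 replicate 3, Day 60 replicate 1 and Day 30 replicate 2, and the count of all genes called between the intervals (1868) was 774 and 643 without those Day 60 wells, and 618 at an adjusted p under 0.01. With 3 or 4 wells a day, no ratio could reach a p under 0.0286.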

Other observations

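Known target genes of PRC2 were also examined. From Day 30 to Day 113, ISL1, a factor of cardiac progenitors, fell by 1.39 ± 0.20 (SE, adjusted p 7.73e-05), from 10.3 to 3.92 CPM on average. CDKN2B, an inhibitor of the cell cycle, fell by 1.83 ± 0.26 (SE, adjusted p 6.93e-05), with a change of -1.98 by Day 60. Its neighbour CDKN2A was at 6.07, 2.17 and 5.96 CPM at the 3 days, with a fall and a rise that both passed (adjusted p 0.033 and 0.0192). PAX6 varied from 1.13 to 48.7 CPM between wells and was called in no pair of days.

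Germline genes that promoter methylation keeps silent in somatic cells were represented by SYCP3 and MAEL, 2 of the 12 listed. Their summed level was 2.13 to 4.90 CPM at Day 30 and 1.67 to 4.33 CPM at Day 113, and neither was called in any pair of days. The other 10 were not analysed here. Of 11 genes that supply or use the methyl donor S-adenosylmethionine, 3 rose and 3 fell over the course. AHCY, which clears the product of methyl transfer, fell by 0.60 ± 0.08 (SE, adjusted p 2.87e-05), and NNMT, which spends the methyl donor on nicotinamide, rose by 1.61 ± 0.40 (SE, adjusted p 0.00489), from 2.39 to 7.29 CPM.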
